A study of Rattus norvegicus with 12 samples.

Results

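The comparison described here set fibroblasts treated with angiotensin II and MOTS-c against fibroblasts treated with angiotensin II alone. Its members were 8 of the 12 libraries of the series, the 4 labelled AngII and the 4 labelled AngII+MOTS-c, and in them the 14488 genes that held enough counts to be tested, of 22850 features listed. The cells were primary fibroblasts from the atria of newborn Sprague-Dawley rats, enriched by differential adhesion and not sorted. Both groups received AngII at 1 μmol/L for 48 h, and the cells of the AngII+MOTS-c group received MOTS-c at 5 μmol/L 1 h before it. Cells without AngII were not analysed here, so the comparison shows what MOTS-c added to AngII and not what AngII itself did. The remaining 4 libraries received AngII and HNG and entered no test.

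MOTS-c is a short peptide encoded within the 12S ribosomal RNA gene of the mitochondrial genome. It is known for slowing the folate cycle and purine synthesis, for activating AMPK, the cell's sensor of low energy, and for entering the nucleus under stress, where it has been linked to promoters that carry antioxidant response elements bound by NRF2. Protein kinase CK2 has been described as a direct binding partner of the peptide. AngII acts through the AT1 receptor on cardiac fibroblasts and drives them toward myofibroblasts, which contract through smooth muscle actin and deposit collagen. The comparison therefore addressed which nuclear and mitochondrial transcripts of AngII-treated fibroblasts differed when MOTS-c was present.

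Counted reads ranged from 28514441 to 38322354 per library, and 3 counts corresponded to 0.0785 to 0.105 CPM, the unit of level used here, in which the count of a gene is scaled to a common library size with edgeR's TMM factors of 0.994 to 1.006. Fibroblast genes were abundant in each library, with Col1a1 at 4125 to 4367 FPKM, which is scaled for gene length, and Pdgfra at 29.8 to 34.5 FPKM. Genes of cardiomyocytes were abundant as well, with Tnnt2 at 666 to 793 FPKM, Myh6 at 263 to 378 FPKM and Nppa at 2033 to 2507 FPKM, so the libraries did not hold the RNA of fibroblasts alone. The macrophage gene Csf1r stood at 12.1 to 16.0 FPKM and the endothelial gene Pecam1 at 2.62 to 3.20 FPKM. In bulk RNA, fewer cells of a type and less RNA per cell cannot be told apart. The study's methods call the replicates biological, and the legend of its RNA sequencing figure calls the samples independent. Replicates 2 and 3 of each group share a number in their library names. AngII+MOTS-c replicate 1 carries the number 2, which no AngII library has. Whether replicates 2 and 3 came from separate cultures is not given in the sources used here, so part of the spread that p-values and intervals rest on may be technical.

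A single gene, Trim15, differed between the groups at an adjusted p below 0.05 (edgeR's quasi-likelihood test, p-values adjusted by Benjamini-Hochberg, 0.0069% of the 14488 genes tested). An unadjusted p below 0.05 was found for 732 genes, of which 354 were higher with MOTS-c (2.44% of the genes tested) and 378 lower (2.61%). The 8 libraries separated without overlap for 262 higher genes (1.81%) and 245 lower genes (1.69%). The second smallest adjusted p was 0.690. The median log2 fold change over all genes was -0.00076, 10% of genes lay below -0.13 and 10% above 0.12, and 27 genes differed by 2-fold or more. Of the 13 genes among these with a mean of at least 1 CPM, 9 were assembled transcripts without a gene name and the others were Trim15, Gpld1, Map3k15 and Asnsd1.

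**Figure D1:**
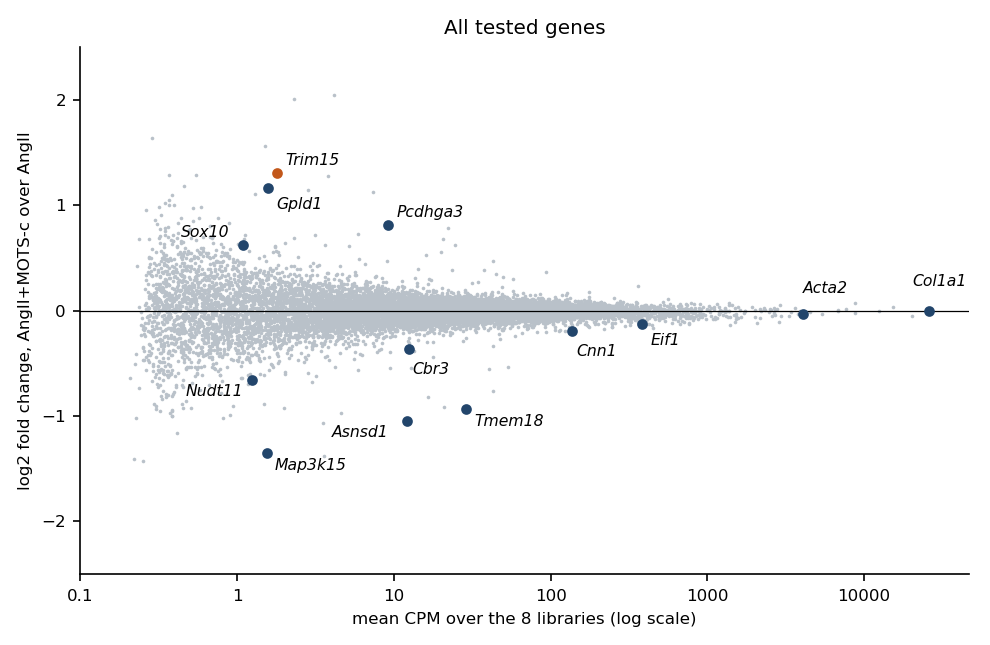
Each point is 1 of the 14488 tested genes, placed by its mean CPM over the 8 libraries on a log scale and its log2 fold change, AngII+MOTS-c over AngII. Trim15, in orange, was the single gene with an adjusted p below 0.05, and the cloud narrows toward abundant genes such as Acta2 and Col1a1, which lie at log2 fold changes of -0.03 and 0.00017.

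The narrow spread of abundant genes bounded the differences that the libraries leave possible. The intervals take each library as a separate replicate and may be too narrow if some were not. The 95% confidence interval of the fold change lay within 1.5-fold in either direction for 12359 genes (85.3%) and within 2-fold for 13769 genes. Above a mean of 100 CPM all 1973 genes had intervals within 1.5-fold, and between 10 and 100 CPM 99.4% did. Between 1 and 10 CPM the share was 80.2%, and below 1 CPM it was 4.11%, where the median interval reached 0.70 on the log2 scale to either side. For most genes of the last class a difference of 1.5-fold in at least 1 direction was therefore within the interval.

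Trim15 encodes a RING finger protein of the tripartite motif family, whose members are mostly ubiquitin ligases. It was read at 1.13, 0.996, 0.969 and 1.04 CPM in the AngII libraries and at 2.43, 2.71, 2.73 and 2.35 CPM in the AngII+MOTS-c libraries. All 4 libraries with MOTS-c were above all 4 without it, and the mean rose from 1.03 ± 0.068 to 2.55 ± 0.193 CPM (SD, n = 4). The log2 fold change was 1.30 with a standard error of 0.15 and a 95% interval of 0.97 to 1.63 (edgeR's quasi-likelihood test, adjusted p = 0.0140). These levels rest on 32 to 43 counts per AngII library and 77 to 102 counts per AngII+MOTS-c library. Trim15 overlaps its neighbours Trim10 and Trim26 in the RefSeq annotation GRCr8, and the use of strand in counting is not given in the sources used here, so reads could not be assigned to it with certainty. Trim26 stood at 45.9 ± 0.841 CPM with AngII and 48.0 ± 1.54 CPM with MOTS-c (log2 fold change 0.06), and Trim10 had too few counts for a test.

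The call for Trim15 was lost, with an adjusted p between 0.0535 and 0.124, on leaving out any single library other than AngII+MOTS-c replicate 1, while its log2 fold change stayed between 1.27 and 1.35. In the 4 AngII+HNG libraries, scaled together with the other 8 and compared by no test, Trim15 was at 3.12, 2.12, 0.634 and 1.21 CPM. Those libraries thus covered both the level of the AngII and the level of the AngII+MOTS-c libraries. Of the 51 tripartite motif genes listed, 43 were tested, 27 were higher and 16 lower with MOTS-c, and their median log2 fold change was 0.03. Besides Trim15, Trim62 was higher (0.21) and Trim16 (-0.15) and Trim47 (-0.13) were lower at an unadjusted p below 0.05, which with Trim15 makes 9.30% of the list beside 5.05% of all genes, and none of these 3 passed the adjusted threshold.

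The study chose Gpld1, Sox10, Map3k15 and Nudt11 for qPCR on this comparison. Each had an unadjusted p below 0.05 and an adjusted p of 0.924 (edgeR's quasi-likelihood test), and since the study picked them from these libraries, their directions here are not independent evidence. The study reports that qPCR in independent fibroblast samples gave the same directions for the genes it chose. Gpld1, a phospholipase that releases proteins from their GPI anchors, was at 0.811, 1.31, 0.787 and 1.01 CPM with AngII and at 2.48, 2.71, 0.735 and 2.78 CPM with MOTS-c. The replicate 3 library with MOTS-c lay below all AngII libraries, so the groups overlapped at a log2 fold change of 1.16 ± 0.33 (SE). Gpld1 overlaps Aldh5a1 and Mrs2 in the RefSeq annotation. Sox10, a transcription factor of neural crest and Schwann cells, was at 1.10, 0.910, 0.757 and 0.638 CPM with AngII and at 1.36, 0.743, 1.89 and 1.31 CPM with MOTS-c (log2 fold change 0.62 ± 0.28), again with overlap. On leaving out 1 library its log2 fold change ran from 0.41 to 0.83, with an unadjusted p of up to 0.169 (edgeR's quasi-likelihood test).

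Map3k15, a MAP kinase kinase kinase of the ASK family, was at 3.53, 0.683, 1.03 and 3.59 CPM with AngII and at 0.866, 0.743, 0.770 and 1.10 CPM with MOTS-c. AngII replicates 1 and 4 were high, while replicates 2 and 3 lay within or below the range with MOTS-c, at a log2 fold change of -1.35 ± 0.45. Map3k15 overlaps Pdha1 in the RefSeq annotation, so that, as for Gpld1, reads could not be assigned to it with certainty. Nudt11, a phosphatase of inositol pyrophosphates, was at 1.75, 1.71, 1.27 and 1.38 CPM with AngII and at 1.10, 1.01, 0.875 and 0.885 CPM with MOTS-c. It was the one gene of the 4 in which the groups did not overlap (log2 fold change -0.66 ± 0.19). All 4 genes lay between 0.638 and 3.59 CPM in every library. The bound of the 95% interval nearest to no change was a fold of 1.36 for Gpld1, 1.01 for Sox10, 0.771 for Map3k15 and 0.844 for Nudt11.

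Acta2, the smooth muscle actin of myofibroblasts, was at 4239, 4148, 4122 and 4032 CPM with AngII and at 3883, 4261, 4037 and 4023 CPM with MOTS-c. The groups overlapped, and the fold change was 0.980 with a 95% interval of 0.932 to 1.03. Col1a1, the main chain of type I collagen, was at 26628, 25533, 25142 and 26528 CPM with AngII and at 25752, 25491, 25975 and 26626 CPM with MOTS-c. Its fold change was 1.00 with an interval of 0.955 to 1.05, and the groups overlapped.

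**Figure D2:**
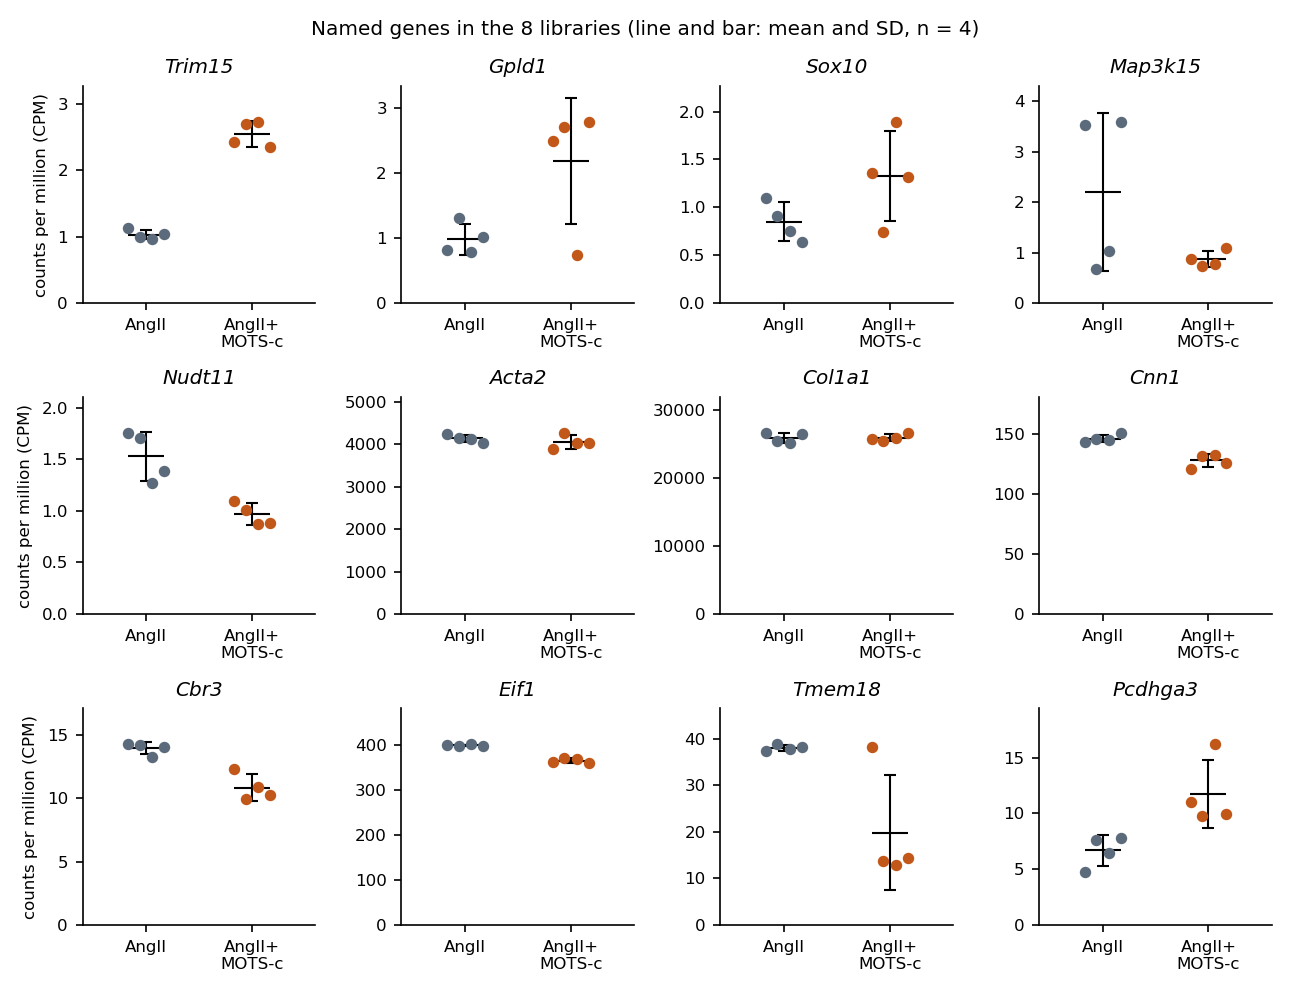
CPM of 12 genes in each library, with 1 point per library and the mean and SD of the 4 libraries per group as line and bar on axes that start at 0. Trim15, Nudt11, Cnn1, Cbr3, Eif1 and Pcdhga3 separate the groups, Gpld1, Sox10, Map3k15 and Tmem18 each have libraries of one group inside or beyond the range of the other, and Acta2 and Col1a1 overlap at log2 fold changes of -0.03 and 0.00017.

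Of the genes with a symbol and a mean of at least 1 CPM whose groups did not overlap, those with the smallest unadjusted p are given as values, since apart from Trim15 their adjusted p lay between 0.690 and 0.924 (edgeR's quasi-likelihood test). On the higher side, Pcdhga3, a protocadherin of the gamma cluster, was at 4.76, 7.65, 6.48 and 7.81 CPM with AngII and at 11.0, 9.79, 16.2 and 9.98 CPM with MOTS-c (log2 fold change 0.81 ± 0.17). The genes of this cluster share their last exons and overlap in the annotation, so counts could be split among them. Of 33 clustered protocadherins tested, a list written after these values were seen, 19 were higher and 14 lower with a median of 0.01, and Pcdhb7 (0.57) and Pcdhb9 (0.88) were also higher at an unadjusted p below 0.05, which with Pcdhga3 makes 9.09% of that list beside 5.05% of all genes.

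The other higher genes differed by little. Kmt2c, a histone H3 methyltransferase, was at 80.8 to 83.1 CPM with AngII and 86.4 to 95.3 CPM with MOTS-c (log2 fold change 0.15 ± 0.04). Pla2g4b, a cytosolic phospholipase A2 that overlaps Jmjd7 in the annotation, was at 9.27 to 10.6 against 12.0 to 12.7 CPM (0.28 ± 0.07). Tada2b, a subunit of the SAGA histone acetyltransferase complex, and Atad2b, a bromodomain ATPase, differed by 0.17 and 0.16 on the log2 scale. Ap4e1, a subunit of the AP-4 adaptor of vesicle sorting, and Zfp629, a zinc finger protein, were higher by 0.19 and 0.17. Kmt2c, Tada2b, Zfp629 and, among the lower genes, Hpgds also overlap other named genes there.

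On the lower side, Cnn1, the actin-binding calponin of smooth muscle and myofibroblasts, was at 143, 146, 145 and 151 CPM with AngII and at 121, 132, 133 and 126 CPM with MOTS-c (log2 fold change -0.19 ± 0.04, adjusted p = 0.690 by edgeR's quasi-likelihood test). Eif1, a factor of start codon selection in translation, was at 399, 397, 402 and 398 CPM against 361, 371, 369 and 359 CPM (-0.13 ± 0.03). For both genes the highest library with MOTS-c lay below the lowest AngII library. In the AngII+HNG libraries, scaled together with the other 8 and compared by no test, Cnn1 was at 107, 108, 115 and 109 CPM. Eif1 was at 378, 377, 295 and 376 CPM there, so both genes also lay below all AngII libraries with HNG. DESeq2 gave Cnn1 and Eif1 an adjusted p of 0.00442 each, so that their calls depend on the tool. Cbr3, a carbonyl reductase, was at 14.3, 14.2, 13.3 and 14.1 CPM against 12.3, 9.95, 10.9 and 10.3 CPM (-0.36 ± 0.07). Hpgds, the hematopoietic prostaglandin D synthase, was at 8.72 to 9.57 against 6.13 to 7.66 CPM (-0.38 ± 0.09), and Gli4, a zinc finger protein, at 7.75 to 8.99 against 6.18 to 6.93 CPM (-0.34 ± 0.08). Cox7b, a subunit of cytochrome c oxidase, was at 60.4 to 66.6 against 48.2 to 58.5 CPM (-0.24 ± 0.06). Thy1, a surface glycoprotein of fibroblasts, and Sfxn3, a mitochondrial serine carrier, were lower by 0.18 and 0.13 on the log2 scale, though not past the adjusted threshold.

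Because MOTS-c has been linked to antioxidant response elements, the promoter windows of tested genes were searched for TGACNNNGC on both strands. The element was present in 12.2% of 27457 RefSeq windows of GRCr8, each reaching from 250 bases before to 50 bases after the start of a gene. Of the 10912 tested genes with a window, 1592 (14.6%) held it. Their median log2 fold change was -0.00053 and that of the genes without it -0.00055, and 50.3% of genes were lower in both classes. At an unadjusted p below 0.05, 45 genes with the element were higher and 36 lower, together 5.09% of them, beside 4.81% of the genes without it and 5.05% of all genes tested. Among the 16 genes with the smallest p given above, 12 had a window and 3 of these held the element, Kmt2c and Pla2g4b on the higher side and Eif1 on the lower side. Their windows are shown 5′ to 3′ on the strand of the gene, with the element or its reverse complement in capitals, because they place it in genes of both directions.
Kmt2c, chr4:10354227-10354526, strand +: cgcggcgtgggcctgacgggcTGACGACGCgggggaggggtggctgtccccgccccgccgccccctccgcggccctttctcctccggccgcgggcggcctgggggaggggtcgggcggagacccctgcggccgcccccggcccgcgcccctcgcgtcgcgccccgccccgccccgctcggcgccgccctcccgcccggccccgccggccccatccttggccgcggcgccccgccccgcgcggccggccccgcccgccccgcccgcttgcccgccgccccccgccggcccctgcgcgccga
Pla2g4b, chr3:127459023-127459322, strand +: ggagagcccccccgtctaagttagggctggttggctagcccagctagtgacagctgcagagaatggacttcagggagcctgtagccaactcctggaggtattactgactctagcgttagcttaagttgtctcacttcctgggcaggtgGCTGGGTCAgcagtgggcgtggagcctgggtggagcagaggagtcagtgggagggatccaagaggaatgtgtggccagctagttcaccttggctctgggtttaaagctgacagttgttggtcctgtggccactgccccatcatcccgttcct
Eif1, chr10:85746887-85747186, strand +: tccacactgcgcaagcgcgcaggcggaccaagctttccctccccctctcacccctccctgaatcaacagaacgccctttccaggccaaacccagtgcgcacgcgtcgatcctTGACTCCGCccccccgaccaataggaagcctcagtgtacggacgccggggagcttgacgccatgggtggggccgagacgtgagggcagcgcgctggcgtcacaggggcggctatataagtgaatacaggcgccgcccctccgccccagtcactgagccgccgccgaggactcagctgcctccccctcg
A match of these letters is a description of the window and not evidence of binding.

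The genes known for NRF2 and antioxidant defence gave values of the same kind. Of 34 tested, 13 were higher and 21 lower, with a median log2 fold change of -0.03 beside -0.00076 for all genes, and 0 passed the adjusted threshold (edgeR's quasi-likelihood test). Hmox1, which breaks down heme, stood at a log2 fold change of -0.03, Nqo1, a quinone reductase, at -0.11 and Sod2, the superoxide dismutase of mitochondria, at -0.03. Gpx1, a glutathione peroxidase (-0.12), and Sod3, the extracellular superoxide dismutase (-0.10), were lower at an unadjusted p below 0.05, or 5.88% of the list beside 5.05% of all genes. All 34 genes had intervals within 1.5-fold of no change. On leaving out 1 library at a time, 30 of the 33 list medians moved by over 1.5 times and 14 of these turned sign, while those of fibroblast activation and contraction, cytochrome c oxidase and ATP synthase, and cholesterol genes stayed within 1.5 times.

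For the enzymes of folate and purine metabolism, 13 of 34 tested genes were higher and 21 lower, with a median of -0.01. Shmt2, which feeds serine carbon into the mitochondrial folate cycle, differed by -0.05, Mthfd2, the next enzyme of that cycle, by -0.06 and Atic, the last enzyme of purine synthesis, by 0.0012 on the log2 scale. Adss, which commits IMP to AMP, was lower by 0.07 at an unadjusted p below 0.05, the only such member, or 2.94% of the list beside 5.05% of all genes. The AMPK and CK2 list held 17 tested genes, 8 higher and 9 lower with a median of -0.0044. Prkaa1, a catalytic subunit of AMPK, differed by -0.07, Prkab1, its scaffold subunit, by 0.09 and Csnk2a1, the catalytic subunit of CK2, by -0.01, and 0 of the 17 had an unadjusted p below 0.05. These are levels of mRNA, while the activity of AMPK is set mainly by phosphorylation of the protein.

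Among genes of fibroblast activation and contraction, 10 of 30 tested were higher and 20 lower, with a median of -0.03. At an unadjusted p below 0.05, 4 were lower and 0 higher, or 13.3% of the list beside 5.05% of all genes, and 0 of them passed the adjusted threshold (edgeR's quasi-likelihood test). These were Cnn1 and Thy1, described above, Tagln, an actin-bundling protein of contractile cells, at 1986 ± 77.6 CPM with MOTS-c against 2150 ± 84.0 CPM with AngII, and S100a4, a calcium-binding protein of migrating fibroblasts, at 232 ± 9.90 against 259 ± 18 CPM. The mean log2 level of the list in a library, taken against the AngII mean, lay between -0.01 and 0.01 with AngII and between -0.04 and -0.02 with MOTS-c, without overlap. Postn and Ccn2, matricellular proteins of activated fibroblasts, were lower by 0.11 and 0.03 with overlapping groups. All 30 genes had intervals within 1.5-fold.

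The fibroblast preparation also held genes of smooth muscle and pericytes, of which 2 were higher and 8 lower with a median of -0.09, and 2 were lower at an unadjusted p below 0.05, or 20% of the list beside 2.61% of all genes. These were Cspg4, a proteoglycan of pericytes (-0.14), and Myh11, the smooth muscle myosin, at 164 ± 11.6 CPM with MOTS-c against 181 ± 3.29 CPM with AngII. The median of the list was -0.02 without AngII+MOTS-c replicate 1. The mean level of these 10 genes in a library ranged from -0.06 to 0.09 with AngII and from -0.21 to 0.08 with MOTS-c, with overlap. Their part in the lower values of Cnn1, Tagln and Thy1 was not tested.

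Collagens and other matrix genes numbered 38, of which 12 were higher and 26 lower with a median of -0.03. Col3a1, the chain of type III collagen, differed by -0.05 with a 95% interval of -0.15 to 0.04, and Fn1, fibronectin, by 0.07 with an interval of -0.01 to 0.15. Tnc, tenascin C, was at 285 ± 14.4 CPM with MOTS-c against 316 ± 16.5 CPM with AngII and Loxl1, a crosslinking oxidase, at 372 ± 2.63 against 393 ± 18.7 CPM, the only members with an unadjusted p below 0.05, or 5.26% of the list beside 5.05% of all genes. The interval lay within 1.5-fold for all 38 genes.

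Of the genes of the angiotensin system and its response, 11 of 21 tested were higher and 10 lower, with a median of 0.01. Agtr1a, the AT1 receptor, was at 39.3 ± 4.20 CPM with AngII and 43.7 ± 6.17 CPM with MOTS-c, and Agtr2, the AT2 receptor, at 0.508 and 0.485 CPM. Ednrb, an endothelin receptor, was lower at 7.20 ± 0.516 CPM with MOTS-c against 9.31 ± 1.16 CPM with AngII, without overlap (log2 fold change -0.37, unadjusted p below the threshold, adjusted p = 0.924 by edgeR's quasi-likelihood test). It was the only member with such an unadjusted p, or 4.76% of the list beside 5.05% of all genes. The proliferation list, with Mki67 (0.02), Ccnd1 (-0.12) and Top2a (-0.02), had 15 higher and 18 lower genes of 33, none with an unadjusted p below 0.05.

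**Figure D3:**
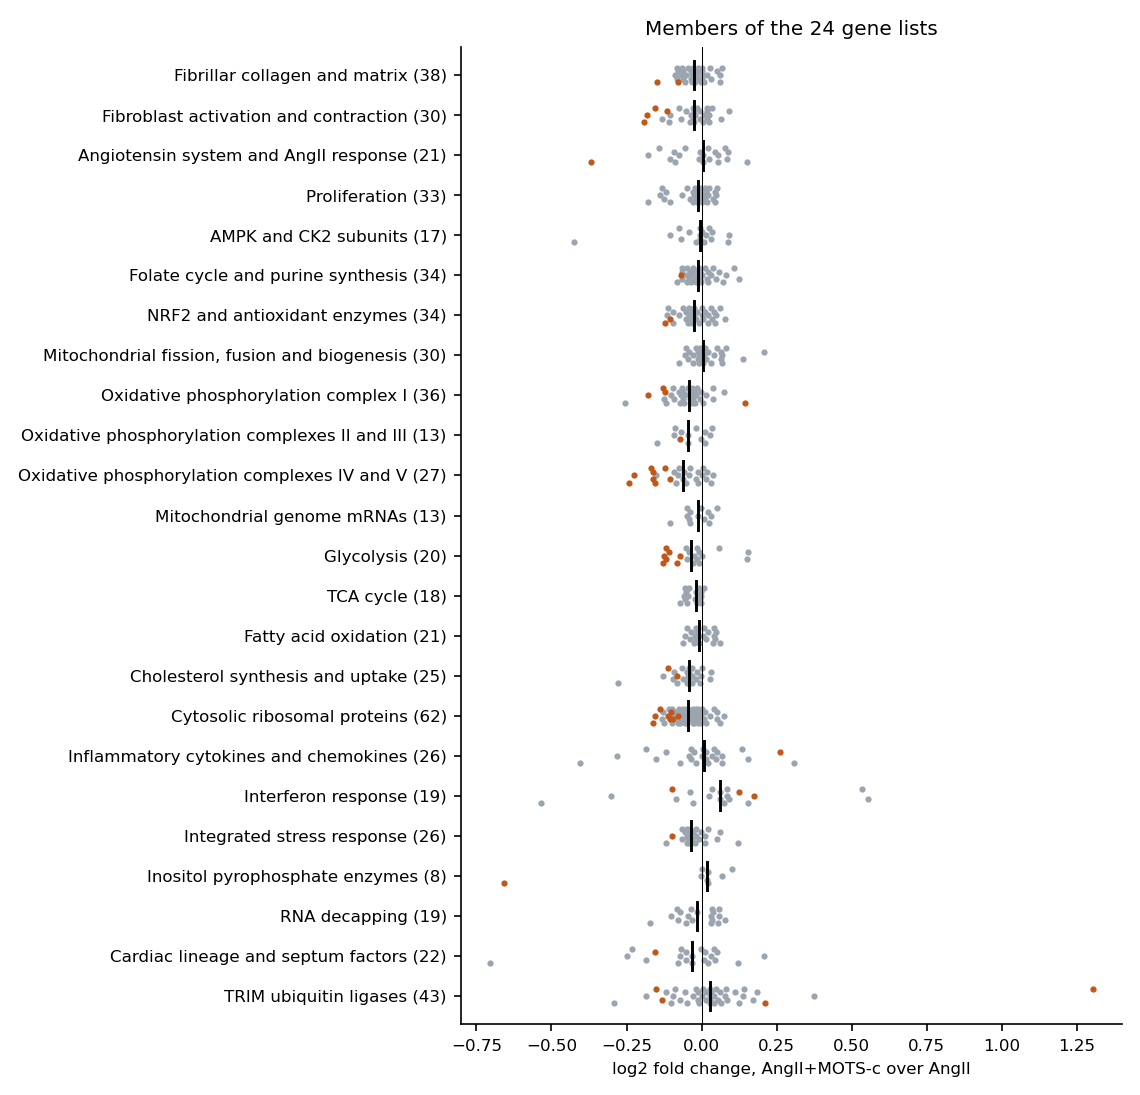
Log2 fold change, AngII+MOTS-c over AngII, of each tested member of 24 gene lists, with the number tested in parentheses, the list median as a black bar and members with an unadjusted p below 0.05 in orange. List medians lie between -0.06 and 0.06, and Trim15 at 1.30 is the single member past the adjusted threshold.

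Subunits of the respiratory chain encoded in the nucleus lay mostly below their AngII level. In complex I, 30 of 36 tested genes were lower and 6 higher with a median of -0.04, in complexes II and III 9 of 13 were lower with a median of -0.05, and in cytochrome c oxidase and ATP synthase 21 of 27 were lower with a median of -0.06. These medians moved with the length of the genes and were -0.01, -0.0041 and -0.04 after a smooth curve of length was subtracted. At an unadjusted p below 0.05, which 2.61% of all genes met on the lower side, complex I had 3 lower genes and 1 higher, complexes II and III had 1 lower and 0 higher, and the last list had 8 lower and 0 higher. In these lists 0 genes passed the adjusted threshold (edgeR's quasi-likelihood test). The 8 genes were Cox7b, Cox7c (43.2 ± 3.67 against 50.4 ± 2.95 CPM with AngII), Cox7a2 (51.8 ± 2.80 against 58.0 ± 3.53 CPM), Cox8a, Atp5mf, Atp5mg, Atp5pf and Atp5if1, most of them small subunits of these enzymes. The mean of this list in a library lay between -0.03 and 0.04 with AngII and between -0.08 and -0.06 with MOTS-c, without overlap. The curve of length was not subtracted from these library means. Cox4i1, a subunit of cytochrome c oxidase, differed by 0.01, and Atp5f1a and Atp5f1b, the alpha and beta subunits of ATP synthase, by -0.02 and -0.06.

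Transcripts of the mitochondrial genome itself, of which MOTS-c is a product, were 5 higher and 8 lower of 13 with a median of -0.01. ND1, a subunit of complex I, was at 1631 ± 105 CPM with MOTS-c against 1620 ± 96.7 CPM with AngII, COX1, the core of cytochrome c oxidase, at 12525 ± 232 against 12539 ± 600.4 CPM and CYTB, of complex III, at 2893 ± 141 against 2995 ± 37.4 CPM. Genes of mitochondrial fission, fusion and biogenesis were 16 higher and 14 lower of 30 with a median of 0.0040, 0 of them with an unadjusted p below 0.05. Dnm1l, the GTPase of fission, differed by 0.01, Fis1, its receptor, by -0.05 and Ppargc1a, a coactivator of mitochondrial biogenesis, by 0.08. Of the Krebs cycle genes, 17 of 18 were lower, but the median was -0.02 and 0 had an unadjusted p below 0.05, and Cs, citrate synthase, was at -0.00045. Fatty acid oxidation genes were 10 higher and 11 lower of 21 with a median of -0.01.

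Glycolytic genes were lower in 16 of 20 cases with a median of -0.04, and 7 were lower at an unadjusted p below 0.05, or 35.0% of the list beside 2.61% of all genes lower at that p, with 0 past the adjusted threshold (edgeR's quasi-likelihood test). Eno1, enolase, was at 731 ± 24.3 against 794 ± 20.9 CPM with AngII, Pgk1, phosphoglycerate kinase, at 313 ± 4.04 against 337 ± 13.4 CPM, Aldoa, aldolase, at 606 ± 14.7 against 642 ± 11.7 CPM and Pkm, pyruvate kinase, at 731 ± 15.6 against 798 ± 53.5 CPM. For these 4 genes, 20% of the list, the groups did not overlap, beside 1.69% of all genes on the lower side. Gapdh, Ldha and the glucose transporter Slc2a1 were lower by 0.13, 0.07 and 0.12 on the log2 scale, while Hk2 (-0.02) and Pfkp (-0.01), the enzymes of the early regulated steps, were near 0. The mean of the list ranged from -0.02 to 0.02 with AngII and from -0.06 to -0.01 with MOTS-c, so the groups overlapped in the mean over all members.

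Ribosomal protein genes were lower in 52 of 62 cases with a median of -0.05, and 8 were lower and 0 higher at an unadjusted p below 0.05 (12.9% of the list beside 5.05% of all genes), among them Rpl34 (-0.16) and Rps24 (-0.16). Rpl3 and Rps6 were at 0.00030 and -0.0024. Many genes of this family have near-identical copies in the genome, among which counts could be split. Cholesterol genes were lower in 23 of 25 cases with a median of -0.04, and Fdps (-0.11) and Idi1 (-0.08), enzymes that make isoprenoid precursors, had an unadjusted p below 0.05, or 8% of the list beside 5.05% of all genes. Sqle, the squalene epoxidase of this pathway, differed by -0.04.

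**Figure D4:**
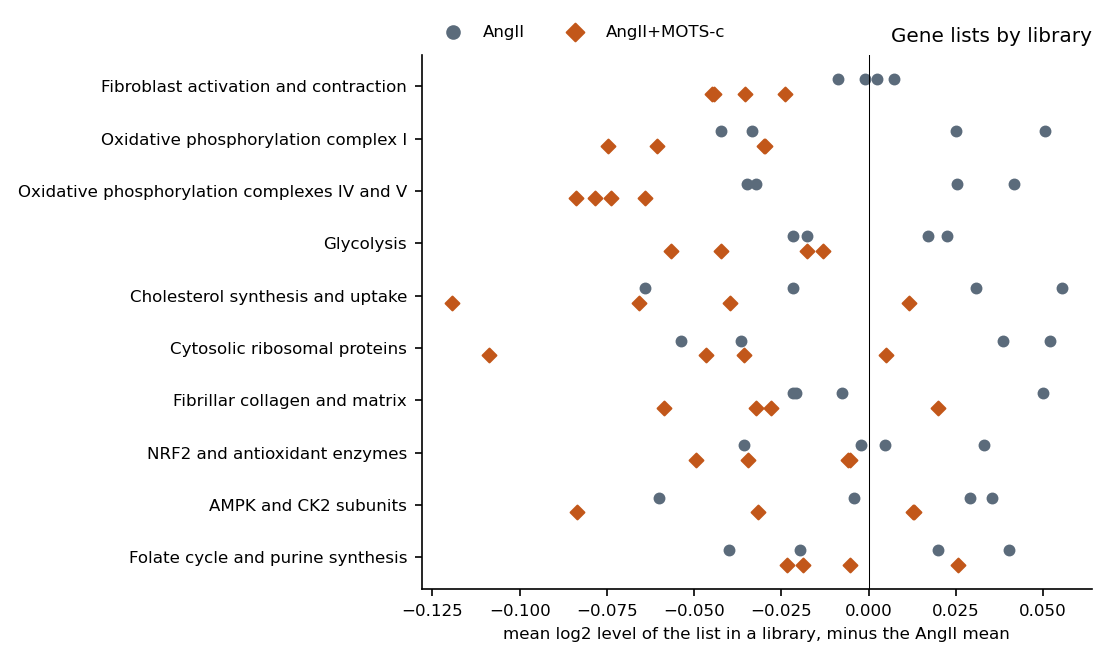
Mean log2 level of the tested members of 10 gene lists in each library, minus the mean over the AngII libraries, with circles for AngII and diamonds for AngII+MOTS-c. The groups are apart for fibroblast activation and for respiratory complexes IV and V and overlap for the other lists drawn, and all means lie between -0.12 and 0.06. No curve of gene length was subtracted from these means.

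Gene length moved with these values. Across 14203 genes with a length, taken as what the deposited counts and FPKM imply, the log2 fold change had a Spearman correlation of 0.192 with length, a description across genes, which are not independent replicates. Of 1023 genes below 1000 bases 67.3% were lower with MOTS-c at a median of -0.04, and of 829 genes over 8000 bases 30.2% were lower at a median of 0.03. The median length was 628 bases in the list of complexes IV and V, 675 in complex I and 630 among ribosomal proteins, beside 2870 over all tested genes. Libraries of the AngII group differed in the same way, since the correlation of a library's deviations with length ran from -0.211 in AngII replicate 2 to 0.180 in AngII replicate 1, and from 0.0638 to 0.178 in the AngII+MOTS-c libraries. After a smooth curve of length was subtracted, besides the medians of the respiratory chain, that of ribosomal proteins was -0.01, that of the integrated stress response -0.02, that of the tripartite motif genes 0.01 and that of folate and purine genes -0.0028. The medians of mitochondrial transcripts and of cytokines turned sign, to 0.01 and -0.0029, while those of glycolysis (-0.03), cholesterol (-0.04) and fibroblast activation (-0.02) moved by 0.01 or less. The medians of AMPK and CK2 (-0.0106), RNA decapping (-0.0052) and inositol pyrophosphate enzymes (0.0081) moved as well. Those of cardiomyocyte and endothelial genes became -0.05 and 0.0050. The part of length in the single genes of these lists was not tested.

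**Figure D5:**
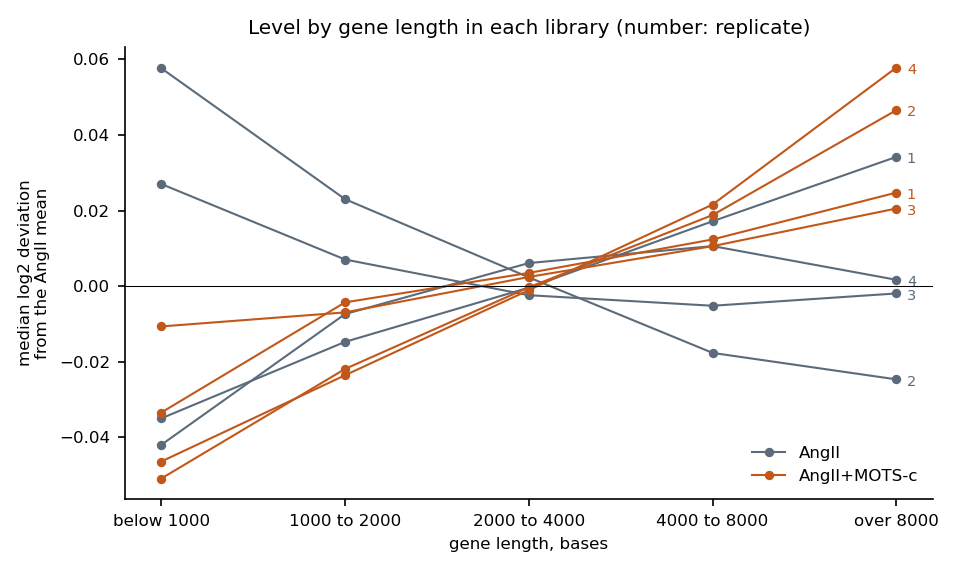
Median deviation of the log2 level from the AngII mean, by class of gene length in bases, with 1 line per library and the replicate number at its end. AngII replicates 2 and 3 are high among short genes, while AngII replicates 1 and 4 run with the 4 AngII+MOTS-c libraries there.

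Genes of the integrated stress response were 6 higher and 20 lower of 26 with a median of -0.03. Atf4, its transcription factor, was at 389 ± 9.75 CPM with MOTS-c against 417 ± 19.3 CPM with AngII with an unadjusted p below 0.05 and overlapping groups, and its targets Asns (-0.05) and Ddit3 (0.01) were closer to 0. Atf4 was the only member with such a p, or 3.85% of the list beside 5.05% of all genes. Interferon response genes were 13 higher and 6 lower of 19 with a median of 0.06, but the mean of the list with MOTS-c, 0.00027, was near 0, and libraries with MOTS-c ran from -0.20 to 0.17. Irf1, a transcription factor of this response (0.13), and Ifih1, a sensor of viral RNA (0.17), were higher and B2m, the light chain of MHC class I (-0.10), was lower at an unadjusted p below 0.05, together 15.8% of the list beside 5.05% of all genes. Isg15, a ubiquitin-like protein of this response, had means below 1 CPM in both groups, reached 1.4 CPM in AngII+MOTS-c replicate 4 and differed by 0.06. Cytokines and chemokines were 15 higher and 11 lower of 26, and Il33, an alarmin, was higher at 6.11 ± 0.491 against 5.10 ± 0.437 CPM with an unadjusted p below 0.05. It was the only such member, or 3.85% of the list beside 5.05% of all genes. Ccl2 differed by -0.19 with overlapping groups, Il6 stood at 0.467 and 0.462 CPM, and Il1b had too few counts for a test.

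The remaining lists include that of the qPCR gene Nudt11. Of 8 enzymes of inositol pyrophosphates, 6 were higher and 2 lower with a median of 0.02, while the mean of the list with MOTS-c was -0.05, with Nudt11 at -0.66 and the other 7 members between -0.0015 and 0.10. The mean of the list lay between -0.01 and 0.03 in the AngII libraries and between -0.07 and -0.03 with MOTS-c, without overlap. Nudt3 and Nudt4, which act on the same molecules, differed by 0.00026 and 0.02 on the log2 scale. On the FPKM scale Nudt3 stood at 28.8 to 31.6 and Nudt4 at 41.0 to 45.8 in the 8 libraries, beside 0.322 to 0.665 for Nudt11. Genes of RNA decapping were 9 higher and 10 lower of 19, with Dcp2 at 0.08, Dcp1a at 0.03 and Nudt16 at 0.06. Of 22 factors of the cardiac lineage and septum, 9 were higher and 13 lower with a median of -0.03. Nr2f2, a nuclear receptor of atrial identity, was lower at 58.7 ± 2.39 against 65.4 ± 2.32 CPM without overlap (unadjusted p below 0.05, adjusted p = 0.924 by edgeR's quasi-likelihood test), and Gata4 (-0.0033), Tbx5 (0.03) and Tbx20 (0.04) were near 0. Nr2f2 was the only member with such an unadjusted p, or 4.55% of the list beside 5.05% of all genes.

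Markers of the cell types in the culture were compared in the same way. The 10 genes of fibroblast identity were 4 higher and 6 lower with a median of -0.02, the 12 cardiomyocyte genes 3 higher and 9 lower with a median of -0.08 and the 10 endothelial genes 6 higher and 4 lower with a median of 0.01. Of 11 macrophage genes 8 were higher and 3 lower at a median of 0.05, with Cd68 at 23.0 ± 1.96 CPM with MOTS-c against 20.5 ± 2.96 CPM with AngII, but the median was -0.0082 without AngII+MOTS-c replicate 4 and 0.10 without AngII replicate 4. All 10 epicardial and mesothelial genes were lower at a median of -0.08, and Lrrn4 had an unadjusted p below 0.05, or 10% of the list beside 5.05% of all genes. That median was -0.16 without AngII replicate 4 and -0.02 without AngII replicate 2, and the cardiomyocyte median was -0.14 without AngII+MOTS-c replicate 4 and -0.03 without AngII+MOTS-c replicate 3. The fibroblast identity median was 0.02 without AngII replicate 4 and -0.06 without AngII+MOTS-c replicate 4, and the endothelial median was -0.05 without AngII replicate 2. Schwann and neural crest genes, which include Sox10, were 6 higher and 3 lower at a median of 0.10. At an unadjusted p below 0.05, fibroblast identity, cardiomyocyte and Schwann genes held 1 member each, or 10%, 8.33% and 11.1% of their lists. Macrophage and endothelial genes held none. For each of these lists and for 4 genes linked to the Y chromosome the libraries of the groups overlapped in the mean of the list.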

How the data were processed

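Reads were sequenced in pairs on a DNBSEQ instrument from mRNA libraries. The authors deposited unnormalized read counts of each gene as whole numbers, and FPKM values of the same features, which are also scaled for the length of the gene. The submitters' processing notes name HISAT2, Picard 1.41 and SAMtools 0.1.18, and the counting tool, the use of strand, the genome build and the annotation are not given in the sources used here. The sample titles gave the groups, and the study's methods gave doses and times. The columns of the 4 AngII+HNG libraries entered no test.

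The counts of the 8 libraries were tested with edgeR 4.0.16 in R 4.3.3 (filterByExpr, TMM, glmQLFit and glmQLFTest) with Benjamini-Hochberg adjustment over 14488 genes and a threshold of 0.05. Standard errors and 95% intervals used the quasi-likelihood dispersion with 13.2 degrees of freedom. The computation was tested on simulated data with known changes. CPM values carry the TMM scaling, and FPKM was used for levels between genes, for gene length and in an alternative with limma 3.58.1. Depth is that of counted reads, and floors of 3 counts cover counting error only.

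Genes were named if their adjusted p was below 0.05, if they were among the 8 per direction with the smallest p, a symbol that is not a placeholder, a mean level of 1 CPM or more and groups apart, if the study chose them for qPCR, with Acta2 and Col1a1, or if they were the first 3 of one of 24 theme lists or members with an unadjusted p below 0.05. The members and the lists, with 8 further lists of cell types and sex, were chosen with earlier results of these data known, and are described by counts and medians beside all genes. Tmem18, Gmpr2, LOC100360508, Asnsd1, the protocadherin list, the genes on 2 levels and single marker genes of cell types were chosen once their values were known. The RefSeq table of GRCr8 held the symbols of 88.7% of the features and gave synonyms, neighbours and promoter windows, and 71 of the named genes have a window there. No coordinates of the authors' build are given. Some members of the lists are not reported here by name and stay in the counts.

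The alternatives were DESeq2 1.42.0, RLE size factors, no filter, at least 10 counts in every library, robust estimation, a replicate block, a block by library-name number, summing of replicates 2 and 3, limma on log2(FPKM + 1) and log2(FPKM + 0.1), leaving out each library, and for list medians a loess curve of gene length with a span of 0.5.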

Additional observations from a re-analysis of the deposited data

Results flagged for a closer look

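Of 250 values tested in groups of 4 libraries, 10 had 1 library far from the other 3 by Dixon's criterion, which chance meets in about 1 in 20 groups. Gpld1 was at 0.735 CPM in AngII+MOTS-c replicate 3, against 2.48 to 2.78 CPM in the other 3. Tmem18 was at 38.3 CPM in AngII+MOTS-c replicate 1 against 12.9 to 14.3 CPM, and Gmpr2 at 15.1 CPM in the same library against 10.2 to 10.5 CPM. In AngII replicate 4, Postn was at 1925 CPM against 1396 to 1478 and Pfkp at 164 CPM against 155 to 156. In AngII replicate 1, CYTB was at 2940 CPM against 3008 to 3020. Shmt2 was at 172 CPM in AngII+MOTS-c replicate 4 against 188 to 189, and Rps6 at 1252 CPM in AngII+MOTS-c replicate 2 against 1420 to 1435. The mean log2 level of inositol pyrophosphate enzymes stood at 0.0295 and that of fibroblast identity genes at 0.109 above the AngII mean in AngII replicate 4, with the other AngII libraries between -0.01 and -0.0066 and between -0.04 and -0.03. For the fibroblast identity genes AngII+MOTS-c replicate 4 was also high, at 0.07, with the other libraries with MOTS-c between -0.09 and -0.05, and Postn was at 1781 CPM in it against 1220 to 1391 CPM. The proliferation genes were low in both, at -0.12 in AngII replicate 4 and -0.13 in AngII+MOTS-c replicate 4, with the other 6 libraries between -0.01 and 0.06.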

How the results depend on the processing

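The number of genes with an adjusted p below 0.05 was 1 with edgeR's quasi-likelihood test and also with RLE size factors, without a filter, with at least 10 counts in every library, with robust estimation and with limma on either FPKM scale, Trim15 each time. It was 3 with DESeq2 (Cnn1, Eif1 and Trim15) and 0 after the counts of replicates 2 and 3 were summed, where 645 genes had an unadjusted p below 0.05. Leaving out single libraries gave 0 to 3 genes, 3 (Gmpr2, Tmem18 and Trim15) without AngII+MOTS-c replicate 1 and 0 without each of the other 7, with 571 to 913 genes at an unadjusted p below 0.05. With the replicate block 2 genes were called, LOC100360508 and Trim15, and 968 had an unadjusted p below 0.05. Deviations of libraries with the same replicate number in their titles correlated at 0.0288, -0.000043, 0.0685 and 0.119. Of these 4, 2 correlated best with their own number. In the library names the replicate 1 libraries carry the numbers 1 and 2, and replicates 2 and 3 share the number 3. These correlations therefore could not decide whether the libraries pair by preparation. The replicate 4 libraries shared the shifts of fibroblast identity and proliferation genes given above. With blocks that follow the library names 1 gene was called, Tmem18 in place of Trim15, but replicate 1 of each group is then alone in its block and adds nothing to the comparison, which leaves out the one MOTS-c library in which Tmem18 was high.

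The adjusted p of Trim15 lay above 0.05 in 9 of 18 alternatives, up to 0.221 with replicates 2 and 3 summed. Its log2 fold change was positive in all 18, from 0.46 with limma on log2(FPKM + 1) to 1.37. The cause was not tested. Among the 16 genes chosen by p, 277 of 288 alternative values kept direction and side of the threshold and none turned sign. For the other named genes 128 of 1295 values turned sign, in 39 of 72 genes, and for list medians 48 of 627, in 15 of 33 lists. On log2(FPKM + 1), which shrinks low genes, Gpld1 was at 0.21, Sox10 at 0.16, Map3k15 at -0.27 and Nudt11 at -0.21. Intervals were widest below 1 CPM, and the part of depth in this was not tested.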

Other observations

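Tmem18, a transmembrane protein of the nuclear envelope, was at 37.4, 38.9, 37.9 and 38.2 CPM in the AngII libraries and at 38.3, 13.7, 12.9 and 14.3 CPM in the AngII+MOTS-c libraries. The first library with MOTS-c stood with the AngII libraries and the other 3 well below them. In the 4 AngII+HNG libraries, scaled together with the other 8, it was at 35.8, 39.5, 34.1 and 39.5 CPM. Gmpr2, which turns GMP into IMP, followed the same order at 15.8, 15.5, 15.0 and 14.1 CPM against 15.1, 10.5, 10.2 and 10.5 CPM, with 12.6, 14.5, 13.2 and 10.7 CPM in the AngII+HNG libraries. Asnsd1, an asparagine synthetase domain protein, was at 31.0, 5.86, 7.96 and 19.8 CPM against 5.60, 8.30, 9.20 and 8.48 CPM, with the high values in the AngII libraries 1 and 4 in which Map3k15 was high as well. Gmpr2 overlaps Nedd8 and Tinf2 in the RefSeq annotation GRCr8 and Asnsd1 overlaps Asdurf and Slc40a1, so reads of these genes could not be assigned with certainty.

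Such a split of libraries of one group onto separate levels was searched for in the 10915 genes whose mean was 5 CPM or more, as 1 gap of at least 2-fold in the sorted values of the 8 libraries and no other step above 1.3-fold. It was met by 20 genes, 16 of them with a gene name, and Tmem18 was the one gene with more than 1 low library in which each low library had received MOTS-c. Sgca, a sarcoglycan, was low in AngII replicates 2 and 4 by a gap of 3.10-fold, the opposite case, and overlaps the far more abundant Col1a1 in that annotation. Egfr, the receptor of epidermal growth factor, at a mean of 58.1 CPM, and Nnmt, nicotinamide N-methyltransferase, at 49.2 CPM, were low in AngII replicate 4 by gaps of 2.27-fold and 2.12-fold. Pitpnc1, a phosphatidylinositol transfer protein, was 4.86-fold below the next library in AngII+MOTS-c replicate 3. The cause of these levels was not tested.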
